A study of Mus musculus with 16 samples.

Results

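Hepatic stellate cells that had been activated in a dish in the company of liver macrophages were compared with stellate cells that had been activated inside an injured liver. The coculture side was the mean of the 2 arrays titled as coculture replicates 2 and 3. The in vivo side was the average of a bile duct ligation mean, from 3 arrays, and a carbon tetrachloride (CCl4) mean, from 3 arrays. The comparison therefore used 8 of the 16 arrays of the series and all 7823 genes that passed the filter on low values, of 18193 genes named on the array.

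Every preparation came from male Balb/c mice aged 8 to 10 weeks, by density centrifugation followed by magnetic removal of F4/80-positive macrophages. The coculture cells came from mice with no stated injury and spent 5 days on plastic in medium with 10% fetal bovine serum, with hepatic macrophages (Kupffer cells) in transwell inserts that kept the cell types from touching. The ligation cells came from mice whose common bile duct had been tied for 15 days, and the CCl4 cells from mice given 4 injections into the peritoneum of 0.5 µl per g body weight, and both were plated for 24 h before lysis. Of the other groups, the 5 quiescent arrays held cells of normal mice plated for 24 h, and the 3 culture arrays held cells kept for 5 days in the same serum without macrophages. Injury, days in the dish and the presence of macrophages all changed together between the 2 sides, so their contributions cannot be told apart here. Serum may have differed too, since no serum share is recorded here for the ligation and CCl4 cells. A coculture sample beyond these 2 is counted in the series' design text (3 in all) and was not analysed here. No label says which preparations came from separate animals. The p-values therefore measure only the spread between these arrays, which may be partly technical.

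Stellate cells are the vitamin A-storing pericytes of the liver sinusoid. When the liver is injured they activate into contractile myofibroblasts that express smooth muscle actin, deposit fibrillar collagen and are the main source of scar in fibrosis. Kupffer cells, macrophages that reside in the sinusoids, signal to them with cytokines and growth factors, and growth on stiff plastic with serum is the standard way of activating them outside the animal.

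Values are the authors' GCRMA log2 intensities, on which a difference of 1 is 2-fold, and values near 2 lie at the background of these arrays. Differences are coculture minus in vivo on that log2 scale, with the standard error (SE) of the limma fit, and a gene was called at an adjusted p (Benjamini-Hochberg over all genes tested, two-sided) under 0.05. The fit drew its spread from all 16 arrays, because 2 arrays against 6 cannot give an exact permutation p under 0.071. All 16 arrays had between 6803 and 7037 genes at or above log2 5, and array medians ran from 2.00 to 2.06. The coculture arrays correlated at 0.95 with each other, at 0.861 to 0.905 with the in vivo arrays and at 0.815 to 0.915 with the culture arrays. They also stood further apart than the in vivo replicates did, since 591 genes (7.55%) lay at least 2-fold apart between them, against 136 to 423 genes for the pairs of replicates within either injury.

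Coculture and in vivo activation differed in 2374 genes (30.3% of those tested), of which 1177 (15%) were higher and 1197 (15.3%) lower in coculture. The counts of gene list members called in this comparison are to be read against these 2 shares. The change was at least 2-fold in 614 of the higher and 500 of the lower genes, and at least 8-fold in 55 and 30. The median difference over all tested genes was 0.01. Coculture against ligation alone gave 2314 called genes (29.6%; 14.4% higher and 15.2% lower), and coculture against CCl4 alone gave 1716 (21.9%; 11.2% higher and 10.8% lower). These last 2 comparisons share the coculture arrays, and the direct test between them, ligation minus CCl4, called 13 genes (0.166%; 2 higher, 0.0256%, and 11 lower, 0.141%), with 1099 genes at an unadjusted p under 0.05. Both coculture arrays lay above all 6 in vivo arrays for 1570 genes (20.1%) and below them for 1538 (19.7%), and 205 of the called genes overlapped. For 4359 genes (55.7%) the 95% interval of the difference stayed within 2-fold either way. The count of called genes was 1057 when coculture replicate 3 was left out, and the count for CCl4 alone then fell to 699 and was 1069 without CCl4 replicate 3. For ligation alone it was 1196 without coculture replicate 3.

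**Figure D1:**
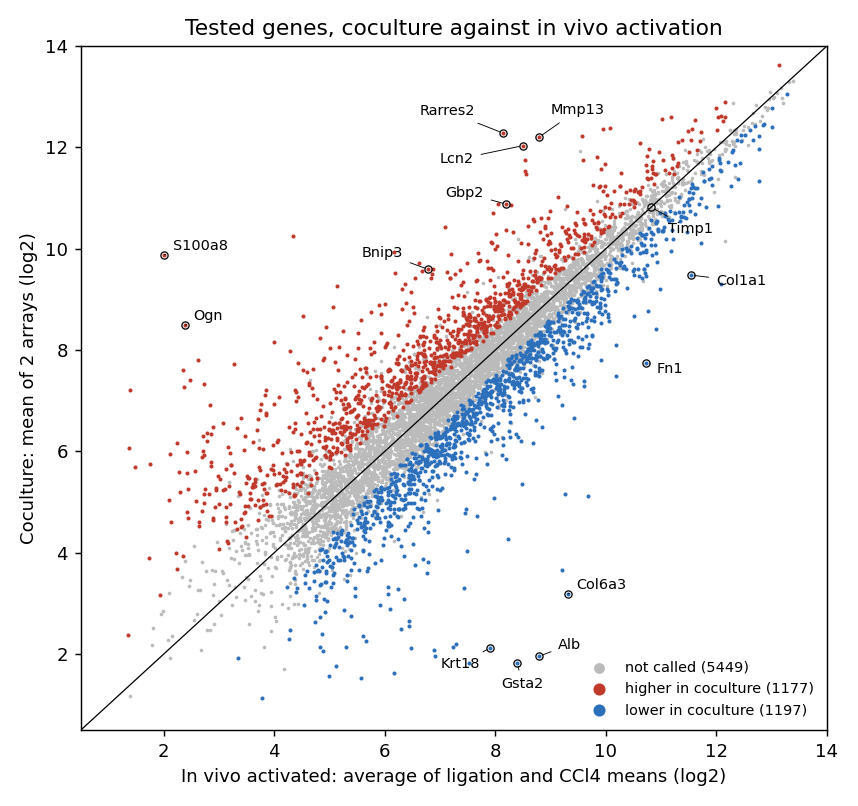
Mean log2 value of each of the 7823 tested genes in coculture (2 arrays, vertical axis) against the average of the ligation and CCl4 means (horizontal axis), with the line of equal values. The 1177 higher genes are red and the 1197 lower genes blue, and S100a8 and Ogn rise from background in vivo while Alb, Gsta2 and Col6a3 fall toward background in coculture.

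The identity of the cells was checked against marker lists. The 13 stellate markers on the array summed to log2 12.58 to 13.37 in coculture, 12.81 to 13.23 after ligation and 12.08 to 12.90 after CCl4, and 11 of them in coculture and 10 in vivo had a mean at or above log2 5. Singly they did not all stay level: of the 12 tested, Lrat, Hgf and Tcf21 were called higher and Reln and Des lower. Pdgfrb, the receptor for PDGF-BB, differed by 0.02 ± 0.19 (SE, 95% interval -0.39 to 0.43; adjusted p = 0.945 in limma). Its other tested probe set differed by -0.7, outside that interval, and was not called. The Tcf21 call (0.98) was lost without coculture replicate 2 (1.06) or 3 (0.90), and with all probe sets averaged (0.13). Other tested probe sets of Hgf differed by -0.11 and 2.27. The 24 macrophage markers summed to 9.20 and 9.32 in coculture, 8.32 to 10.13 after ligation and 8.30 to 9.66 after CCl4. That sum came mainly from Lyz1, Lyz2 and Cd68, the 3 members that could be tested, and none of them was called. The defining Kupffer markers Adgre1 (1.77 and 1.33 in coculture), Clec4f (1.67 and 1.67) and C1qa (1.40 and 1.16) lay at background on the coculture arrays. Both coculture arrays lay below all in vivo arrays for 8 of the 24, against 19.7% of all tested genes. None of these 8 passed the filter on low values, so that share is one of brighter genes. The in vivo arrays held some signal for several of the 8. Cd5l was 1.01 and 0.79 in coculture and 1.5 to 5.30 in vivo, Vsig4 1.17 and 1.07 against 1.67 to 4.20, and Tyrobp 1.68 and 1.19 against 1.93 to 4.11. Mrc1 reached 5.29 on ligation replicate 2. Cd14 was 4.74 and 4.11 in coculture, inside the in vivo range of 2.71 to 6.06, and Cd68 was the 1 member with both coculture arrays above it.

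Hepatocyte, mesothelial and portal fibroblast markers separated the groups. The 13 hepatocyte markers summed to 5.25 and 5.44 in coculture but 7.84 to 9.27 after ligation and 8.71 to 11.54 after CCl4, and the 7 mesothelial markers to 4.41 and 4.53 against 5.23 to 6.27 and 6.07 to 8.86. CCl4 replicate 3 was highest on both lists. The 7 markers of portal fibroblasts, another matrix-making cell of the liver, summed to 6.86 and 7.46 in coculture, 8.24 to 8.66 after ligation and 7.67 to 8.80 after CCl4. Both coculture arrays lay below all in vivo arrays for 4 of the 7, against 19.7% of all tested genes. Thy1 was 1.03 and 0.87 in coculture and 2.99 to 5.37 in vivo. Most of that sum was Fbln2, the 1 tested member, at 6.54 and 7.17 against 7.28 to 8.53, which was not called. In bulk RNA, fewer cells of a type and less RNA per cell cannot be told apart. The cholangiocyte marker Krt19, a keratin, went the other way, at 5.56 and 5.64 in coculture and 1.85 to 3.01 in vivo, while Krt7, Epcam and Sox9 stayed below 3 on the arrays of both sides. Cdh1 (E-cadherin), on the same list of 8, was 1.70 and 1.86 in coculture and 1.47 to 6.40 in vivo, highest on CCl4 replicate 3. No endothelial, neutrophil, lymphocyte or erythroid marker passed the filter. The part of these other cells in the gene differences was not tested.

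**Figure D2:**
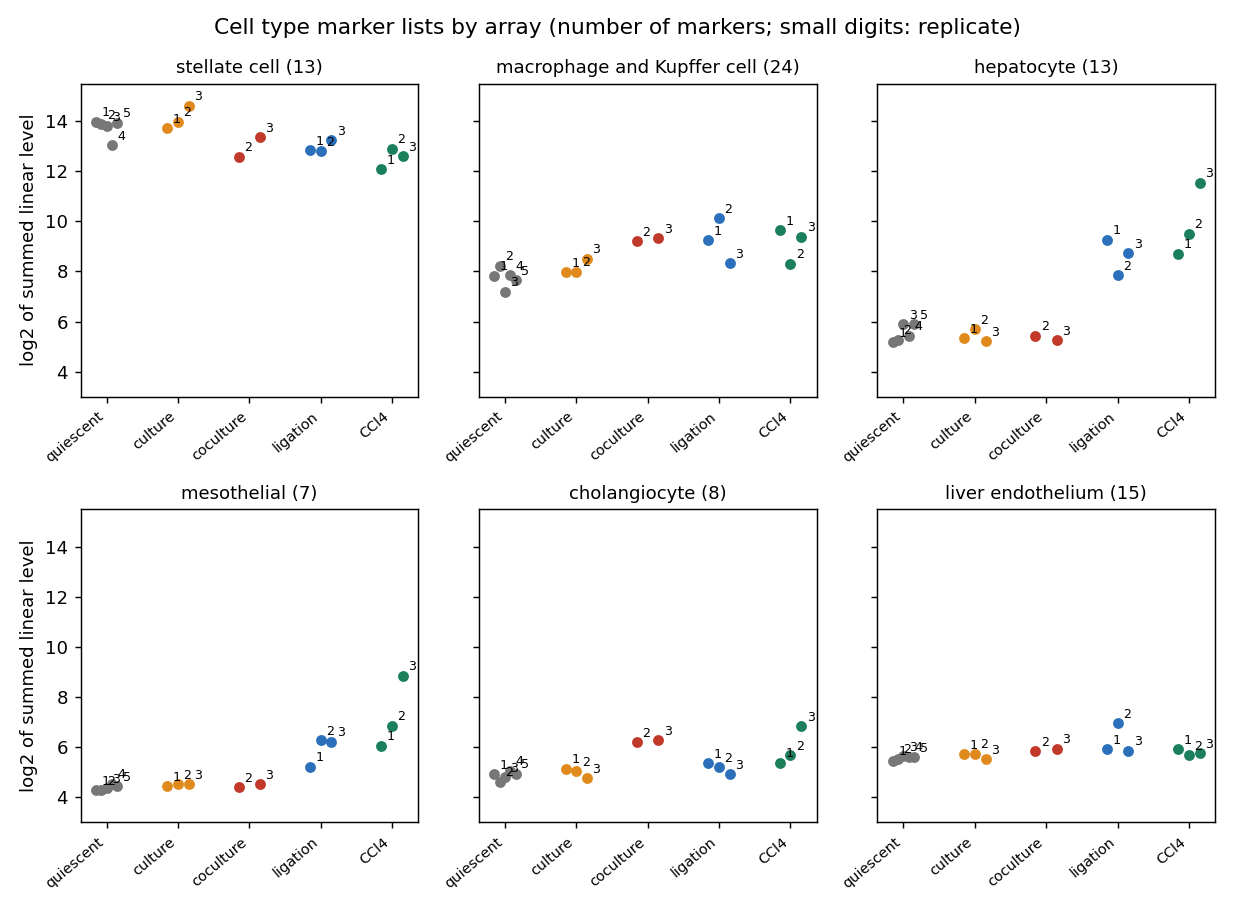
Summed level of 6 cell type marker lists on every array (vertical axis, log2 of the summed linear values; small digits give the replicate), by group. The hepatocyte list is at 5.25 to 5.44 in coculture and at 7.84 to 11.54 on the in vivo arrays, while the stellate list stays between 12.08 and 13.37 in these 3 groups.

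The largest increases included genes at background in vivo and secreted proteins of inflammation and matrix. S100a8, a calcium-binding alarmin best known from neutrophils, was 11.06 and 8.70 in coculture, 2.58, 2.60 and 1.71 after ligation and 1.85, 1.41 and 1.95 after CCl4. It rose by 7.87 ± 0.48 (SE; adjusted p = 8.35e-08 in limma), and no in vivo array came near the coculture arrays. Culture without macrophages was also at background for it, at 1.77 ± 0.34 (SD, n = 3). The defining neutrophil markers Mpo, Camp and Ngp were at 1.20 to 1.60, 1.24 to 1.49 and 1.39 to 1.40 on the 2 coculture arrays, and S100a9, its usual partner, was not among the tested genes.

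Ogn, the small leucine-rich proteoglycan osteoglycin, was 7.47 and 9.52 in coculture and 2.01 to 2.84 on the 6 in vivo arrays (6.10 ± 0.59 higher; adjusted p = 6.77e-06 in limma). Its culture level was as high, at 10.09 ± 1.45 (SD, n = 3). Rarres2, which encodes the chemoattractant chemerin, was 11.50 and 13.07 against 7.82 to 8.68 and differed by 4.14 ± 0.39. The Wnt and FGF receptor modulator Shisa2 (5.25 ± 0.58 higher), the matrix protein Spon2 (4.93 ± 0.47), the G-protein regulator Rgs4 (4.90 ± 0.67), the cysteine dioxygenase Cdo1 (4.69 ± 0.42) and the proprotein convertase Pcsk5 (4.45 ± 0.39) also rose from low values in vivo. Culture minus in vivo was positive and called for all 7 of these genes, from 3.02 for Rgs4 to 7.69 for Ogn, against the same in vivo arrays.

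A further set of the 15 largest increases stood above culture as well as above the in vivo arrays. Prl8a9, a member of the prolactin family known from placenta, was 7.59 and 6.82 in coculture and 1.24 to 1.51 in vivo. Crct1, a cysteine-rich protein of the skin barrier, rose by 5.91 ± 0.68, and Serpina12, the adipokine vaspin, by 5.18 ± 0.39. Ctla2b, a cysteine protease inhibitor, rose by 4.60 ± 0.59 and Fmo2, a flavin monooxygenase, by 4.17 ± 0.51. For these 5 genes coculture minus culture was between 5.08 and 6.26. They were picked for high values on the same 2 coculture arrays, so these differences are no separate support. The filter, log2 5 on at least 2 arrays, can be met by the 2 coculture arrays alone.

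Most complement and acute-phase genes, which liver cells make as part of innate defence, rose in coculture. Of 9 tested members 6 were called higher and none lower, against 15% and 15.3% of all genes, with a median difference of 2.74. The 6 were Lcn2, Cfb, C2, Cp, Serping1 and the alarmin S100a8, which is already given above. Lcn2, the iron-siderophore-binding lipocalin, was 12.23 and 11.84 in coculture, 9.13, 9.64 and 9.37 after ligation and 6.67, 7.53 and 8.62 after CCl4. Every coculture value exceeded every in vivo value, and the difference was 3.54 ± 0.59 (adjusted p = 0.000565 in limma). Cfb, complement factor B, was 8.37 and 8.39 against 4.51 to 5.86 (3.12 ± 0.50 higher). C2 and the copper carrier Cp were higher by 2.99 ± 0.50 and 2.74 ± 0.28, and Serping1, the C1 inhibitor, by 0.81 ± 0.25. Against culture without macrophages, 5 of the 9 were also called higher in coculture (8.37% of all genes were), and Lcn2 was higher there by 9.04. Saa3, C1ra and C1s1 missed the threshold at differences of 1.76, 0.52 and 0.53.

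Most interferon-stimulated genes, the antiviral and antimicrobial effectors that cells switch on in response to interferon, rose in coculture. Of 24 tested members 16 were called higher and none lower, against 15% and 15.3% of all genes, with a median of 2.18. Both coculture arrays lay above all in vivo arrays for 19 of them, against 20.1% of all genes. All 24 differences were positive. The immunity-related GTPase Iigp1 was 9.38 and 10.48 in coculture, 4.98, 5.50 and 7.14 after ligation and 5.79, 6.82 and 6.79 after CCl4, a difference of 3.76 ± 0.66 (adjusted p = 0.000789 in limma). The guanylate-binding protein Gbp2 was 11.00 and 10.75 against 7.75 to 8.87 (2.67 ± 0.35 higher), and its relative Gbp6, among the 15 largest increases, was 4.16 ± 0.59 higher. The RNA sensor Ifih1 differed by 2.18 ± 0.37 and the transcription factor Irf7 by 2.89 ± 0.83. Irf9, Ifitm3, Ifi35, Xaf1, Oas1a, Parp14, Oasl2 and Rsad2 were not called, at differences from 0.32 for Irf9 to 2.76 for Rsad2. Against ligation 19 members were called higher (14.4% of all genes were) and against CCl4 6 were (11.2% of all genes). The count was 5 without coculture replicate 2 and 9 without coculture replicate 3. Against culture without macrophages none of the 24 was called in limma (median 0.37; 2 higher and 0 lower at an unadjusted p under 0.05), while culture minus in vivo called 15 of them higher (25% of all genes were; 50.9% were called in either direction).

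The promoters of these genes are shown because an interferon-stimulated response element is the DNA word through which interferon signalling acts. RefSeq windows on GRCm38.p6, from 250 bases before to 50 after the start, were found for 20 of the 24 genes. The core searched was GAAA, any 2 bases and GAAA again, on either strand and with overlapping matches allowed. It occurred in 14 of the 20 and in 11 of the 13 called ones, and in 237 of all 6416 tested genes with a window (3.69%). The 250 upstream bases of 3 called genes are printed here, 5′ to 3′ along the gene, with the matches in capitals. A match is a description of the sequence only, and binding was not measured.
Gbp2, chr3:142620413-142620662, plus strand: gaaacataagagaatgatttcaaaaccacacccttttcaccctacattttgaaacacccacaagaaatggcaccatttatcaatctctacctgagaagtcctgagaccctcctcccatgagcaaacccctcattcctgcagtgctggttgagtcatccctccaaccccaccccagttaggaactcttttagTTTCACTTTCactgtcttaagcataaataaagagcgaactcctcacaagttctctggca
Irgm1, chr11:48871421-48871670, minus strand: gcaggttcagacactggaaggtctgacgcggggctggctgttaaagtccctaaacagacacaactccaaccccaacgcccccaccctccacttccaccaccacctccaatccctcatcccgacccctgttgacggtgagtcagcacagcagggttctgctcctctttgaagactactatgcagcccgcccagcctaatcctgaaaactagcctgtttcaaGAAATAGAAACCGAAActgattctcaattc
Ifit1, chr19:34640639-34640888, plus strand: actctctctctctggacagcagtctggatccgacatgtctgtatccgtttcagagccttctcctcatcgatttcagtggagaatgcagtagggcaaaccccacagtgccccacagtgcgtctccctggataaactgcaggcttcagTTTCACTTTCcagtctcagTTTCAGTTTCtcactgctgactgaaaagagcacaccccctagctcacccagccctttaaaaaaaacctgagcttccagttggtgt
The immunity-related GTPase Irgm1, whose 2 matches overlap, was 10.55 and 10.02 in coculture and 7.33 to 8.78 in vivo (2.27 ± 0.45 higher; adjusted p = 0.00192 in limma). Ifit1, which binds foreign RNA ends, was 10.49 and 9.31 against 5.74 to 8.50 (2.69 ± 0.92 higher; adjusted p = 0.0377 in limma). The Ifit1 call was lost without coculture replicate 2 (2.11) or replicate 3 (3.28), without ligation replicate 1 (2.61) or 2 (2.52), and without CCl4 replicate 1 (2.56) or 3 (2.70).

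Class I antigen presentation followed the same direction. Of 10 tested members 9 were called higher (15% of all genes) and none lower, with a median of 1.32. H2-K1, a classical class I heavy chain, was 11.45 and 11.01 in coculture, 9.97, 9.65 and 10.27 after ligation and 9.78, 10.34 and 9.93 after CCl4 (1.24 ± 0.18 higher). Tapbp, the peptide-loading chaperone tapasin, was 2.01 ± 0.26 higher, and the immunoproteasome subunits Psmb8 and Psmb9 were higher by 2.64 ± 0.51 and 2.54 ± 0.48. Tap1, a peptide transporter, had a difference of 1.19 and was not called. Culture without macrophages minus in vivo also called 9 of the 10 higher (25% of all genes were), with a median of 1.15. Coculture minus culture called none of the 10 (median 0.18). In vivo activation against quiescent cells called all 10 members lower (14.3% of all genes were), and coculture against quiescent called 1 higher (17.8% of all genes, of 38.7% called in either direction) and none lower.

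NF-kB targets and chemokines rose in part. Among NF-kB targets 6 of 16 were called higher (15% of all genes) and none lower in limma (median 0.55; 7 and 1 at an unadjusted p under 0.05), led by the receptor Cd40 at 1.84 ± 0.37 and the inhibitor Tnip1 at 1.53 ± 0.29. The count was 1 without coculture replicate 2 and 3 without replicate 3. Of 15 chemokines and cytokines 4 were called higher, Ccl2, Ccl7, Cxcl10 and Cxcl16, and none of the 4 calls remained without coculture replicate 2. Ccl2, which draws monocytes, was 11.06 and 10.12 in coculture, 7.46, 8.01 and 8.27 after ligation and 8.91, 10.01 and 9.49 after CCl4 (1.89 ± 0.50 higher; 1.42 without coculture replicate 2). Cxcl10, an interferon-induced chemokine, was 9.52 on coculture replicate 2 but 5.69 on replicate 3, against 3.47 to 5.38 in vivo, and its difference of 3.09 became 1.17 without replicate 2. Il6 was 9.03 and 8.29 against 5.29 to 8.02 and was not called (1.89 ± 1.17). Tslp, an epithelial-type cytokine, was the 1 member called lower, at 5.81 and 4.51 against 7.75 to 10.38 (4.10 lower on the log2 scale in coculture).

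**Figure D3:**
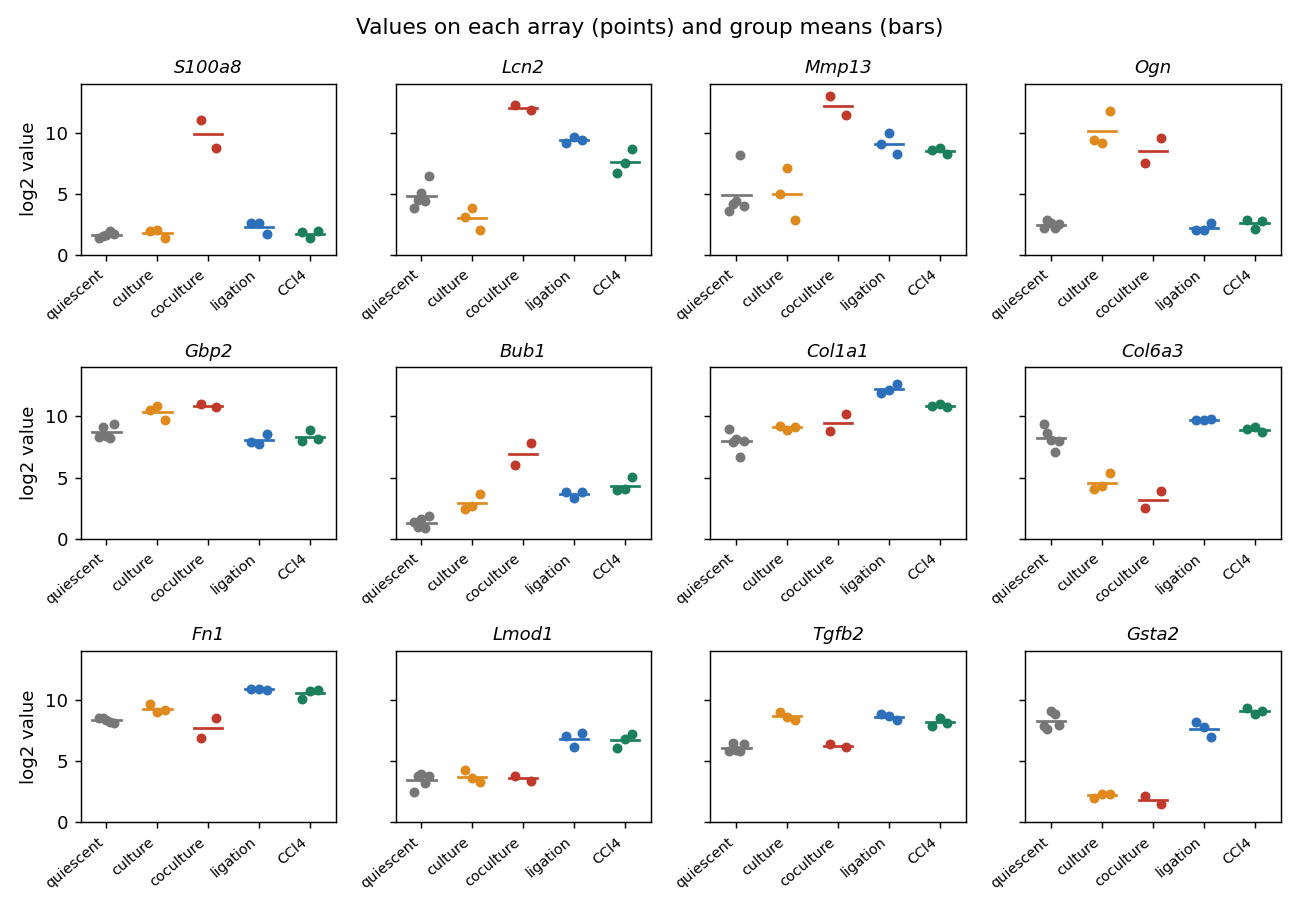
Log2 values of 12 genes on every array (points) with group means (bars), by group. S100a8, Lcn2, Mmp13 and Bub1 are highest in coculture, Ogn and Gbp2 are high in both 5-day groups, and Col1a1, Col6a3, Fn1 and Lmod1 are highest in the 2 in vivo groups.

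Collagens were called lower more often than higher. Of 14 fibrillar and associated collagens 6 were called lower (15.3% of all genes) and 1 higher (15%), 7 were not called, and the median was -0.92. The portal fibroblast markers given above were lower on the coculture arrays too, and their part in the matrix differences was not tested. Col6a3, a chain of the beaded collagen VI, was 2.47 and 3.91 in coculture, 9.67, 9.68 and 9.79 after ligation and 8.95, 9.12 and 8.69 after CCl4. It fell by 6.12 on the log2 scale (SE 0.48; adjusted p = 1.04e-06 in limma), while its partners Col6a1 and Col6a2 differed by -1.07 ± 0.63 and -0.10 ± 0.47 and were not called. Col6a1 was 4.48 and 8.22, and Col6a2 5.42 and 8.03, on coculture replicates 2 and 3, so the 2 arrays fell on either side of the in vivo values. Without coculture replicate 2, Col6a2 was called with the opposite sign, at 1.20.

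Col1a1, the main chain of type I collagen, was 8.79 and 10.17 in coculture, 11.88, 12.15 and 12.61 after ligation and 10.81, 11.01 and 10.76 after CCl4. All 6 in vivo values were higher, and the difference was -2.06 ± 0.43 (adjusted p = 0.00237 in limma). It was -2.74 against ligation and -1.38 against CCl4, and the pooled call was lost without coculture replicate 2 (-1.37). Col1a2 differed by -1.0 ± 0.28 and lost its call without that array (-0.51). Col3a1 was 11.12 and 12.98 against 11.91 to 13.13 and was not called (-0.51 ± 0.55). Col15a1 and Col5a3 were lower by 3.43 and 3.24 on the log2 scale. Col5a2 was the 1 collagen called higher (0.53 ± 0.13), and it lost the call without coculture replicate 3 (0.51).

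Glycoproteins and proteoglycans split. Of 23 members of the elastic fibre, proteoglycan and matricellular list, 7 were called lower and 6 higher (median -0.28). Fn1, fibronectin, was 6.94 and 8.55 in coculture, 10.93, 10.88 and 10.85 after ligation and 10.07, 10.77 and 10.87 after CCl4, and was 2.98 lower (SE 0.31; adjusted p = 1.41e-05 in limma). Fmod, Tgfbi, Ltbp2, Tnxb, Ltbp1 and Tnc were the other lower members. Tgfbi was 3.11 and 7.05 on the 2 coculture arrays, and its difference of -2.89 became -0.92 and was not called without replicate 2. The higher members were Ogn, the fibulin Efemp1 (2.88 ± 0.46), Prelp, Fbln5, Dcn and Postn, and their number was 3 without coculture replicate 3. In basement membrane 4 of 9 were called lower, Lamc1, Lamb2, Col4a2 and Col4a1, and Nid2 was 2.57 ± 0.50 higher, with 2 lower without coculture replicate 3.

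Of 15 tested enzymes and chaperones that process and cross-link collagen, 6 were called higher and 2 lower (median 0.39). The prolyl hydroxylases P4ha1 and P4ha2 were 0.78 ± 0.21 and 1.55 ± 0.23 higher, and the lysyl oxidases Lox, Loxl3 and Loxl4 were 1.25 ± 0.34, 0.85 ± 0.28 and 1.94 ± 0.27 higher. Loxl1, the lysyl oxidase linked to elastic fibres, went against its relatives, at 4.59 and 4.85 in coculture, 7.12, 7.57 and 7.65 after ligation and 7.95, 7.43 and 8.27 after CCl4 (-2.95 ± 0.27; adjusted p = 4.87e-06 in limma). The collagen chaperone Serpinh1 was also lower (-0.71 ± 0.22). Without coculture replicate 3 the higher count was 3.

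Matrix proteases and their inhibitors split as well, with 4 of 21 called higher and 6 lower (median -0.41). Mmp13, the rodent interstitial collagenase, was 13.00 and 11.41 in coculture, 9.07, 9.93 and 8.23 after ligation and 8.54, 8.74 and 8.26 after CCl4, a difference of 3.41 ± 1.07 (adjusted p = 0.025 in limma). Its coculture values exceeded all in vivo values, but the quiescent and culture arrays spread widely (SD 1.87, n = 5, and SD 2.13, n = 3). The call was lost without coculture replicate 2 (2.61) or replicate 3 (4.20). Stromelysin Mmp3 was 2.42 ± 0.69 higher and lost its call without either coculture array (2.23 and 2.62). Macrophage-type elastase Mmp12 was at background in coculture (2.59 and 2.52) and at 5.15 to 8.14 in vivo. Timp3, the matrix-bound metalloprotease inhibitor, was lower by 2.79 on the log2 scale (SE 0.27). Timp1, the classical inhibitor of activated stellate cells, was 11.05 and 10.58 in coculture, 11.05, 11.24 and 11.23 after ligation and 10.61, 10.24 and 10.57 after CCl4. Its ranges overlapped, and the difference of -0.01 had a 95% interval of -1.51 to 1.49, wide enough to hold a 2-fold change in either direction. The higher count was 1 without either coculture array and the lower count was 2 without coculture replicate 2.

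Most genes of the contractile programme of the myofibroblast were lower in coculture than in vivo. All 18 smooth muscle genes had negative differences, 13 were called lower (15.3% of all genes) and none higher, with a median of -0.80, and the same number were called lower against ligation (15.2% of all genes) and 9 against CCl4 (10.8%). Lmod1, an actin filament nucleator of smooth muscle, was 3.79 and 3.41 in coculture, 7.08, 6.14 and 7.32 after ligation and 6.10, 6.82 and 7.20 after CCl4. The groups were far apart, and the difference was -3.17 ± 0.42 (adjusted p = 8.95e-05 in limma). Smooth muscle myosin Myh11 and gamma actin Actg2 were lower by 2.98 and 2.03 on the log2 scale, and filamin Flna by 1.61 (SE 0.18). Other members moved less: Tagln differed by -0.81 ± 0.15, Tpm1 by -0.68 ± 0.17 and Acta2 by -0.60 ± 0.21. Culture without macrophages minus in vivo also called 11 of the 18 lower (25.9% of all genes were) and 0 higher. Coculture minus culture called 1 higher (8.37% of all genes) and 1 lower (7.03%). Against quiescent cells, in vivo activation called 10 higher (11.2%) and 0 lower, and coculture 5 higher (17.8%) and 4 lower (20.9%).

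Acta2, alpha smooth muscle actin and the standard marker of activation, was 12.63 and 12.18 in coculture, 13.10, 12.98 and 13.13 after ligation and 12.77, 13.09 and 12.95 after CCl4. Both coculture values were below the in vivo range by a small margin (1.51-fold higher in vivo; adjusted p = 0.0417 in limma). The Acta2 call was lost without coculture replicate 3 (-0.37), any ligation array (-0.58 to -0.62), CCl4 replicate 2 (-0.56) or 3 (-0.59), quiescent replicate 2 or culture replicate 2 (-0.60 each), with quantile normalisation (-0.51), and with no filter or no trend (-0.60 each). The list count was 4 without coculture replicate 3. Cald1, Myl9, Mylk, Tpm2 and Cnn1 were not called, and the 95% interval stayed within 2-fold for 5 of the 18 genes.

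The CArG box, the site of serum response factor in smooth muscle promoters, was searched on both strands, overlaps allowed. It occurred in 3 of the 14 contractile genes with a RefSeq window (2 of 9 called) and in 103 of 6416 tested genes (1.61%). The upstream bases of calponin Cnn2, a called gene (-0.80 ± 0.20), are shown with the match in capitals.
Cnn2, chr10:79988350-79988599, plus strand: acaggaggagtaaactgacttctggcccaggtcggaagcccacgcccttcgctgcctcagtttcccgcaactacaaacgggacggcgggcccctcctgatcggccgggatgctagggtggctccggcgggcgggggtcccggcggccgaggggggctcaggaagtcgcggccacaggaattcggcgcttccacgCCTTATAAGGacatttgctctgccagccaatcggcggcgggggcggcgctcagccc
The absence of a match says only that these letters are not in the window.

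TGF-beta and BMP genes did not move as a group. Of 26 tested 4 were called lower, a share near the 15.3% of all genes, and 1 higher (median 0.19). Among the 3 TGF-beta ligands, Tgfb2 and Tgfb3 fell. Tgfb2 was 6.41 and 6.17 in coculture, 8.88, 8.67 and 8.35 after ligation and 7.85, 8.58 and 8.10 after CCl4 (-2.12 ± 0.25; adjusted p = 3.47e-05 in limma), and culture without macrophages was at 8.68 ± 0.31 (SD, n = 3). Coculture was lower than culture for it too, by 2.39 on the log2 scale (adjusted p = 6.22e-05 in limma). Tgfb3 was lower by 2.69, whereas Tgfb1 was not called (-0.59 ± 0.36) and the receptors Tgfbr1, Tgfbr2 and Tgfbr3 differed by 0.20, 0.19 and 0.04 without a call. The inhibitory Smad7 was the 1 higher member (0.82 ± 0.20; not called without coculture replicate 3, at 0.63). Its other tested probe set differed by 0, and the call was lost with all probe sets averaged (0.41).

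Of 21 other growth factors and receptors 5 were called higher and 4 lower (median -0.01). Pdgfd, a ligand of the PDGF beta receptor, was 4.63 and 6.87 in coculture and 1.59 to 1.97 in vivo (3.99 ± 0.42 higher). Fgf2 was 3.18 ± 0.60 and Vegfa 2.03 ± 0.55 higher, and the binding protein Igfbp4 was lower by 2.82. Without coculture replicate 3 the counts were 2 and 2, and 2 were called higher when all probe sets were averaged. Of 9 integrins 3 were called lower, Itga5, Itga6 and Itga9, and 1 higher, Itga1 (0.84 ± 0.30), whose sign turned when all its probe sets were averaged (-0.17). Of 13 axon guidance genes the receptor Robo2 and Sema5a were called lower, by 4.95 and 2.02, and Sema3d higher (0.93 ± 0.28). Without coculture replicate 2 the calls of Itga9 (-1.04), Sema5a (-1.63) and Sema3d (0.75) were lost, and without replicate 3 those of Itga5 (-2.73), Itga1 (0.42) and Sema3d (1.11). The Itga1 call was also lost without any culture array, quiescent replicate 1, 3 or 5, ligation replicate 1 or 2, or CCl4 replicate 1 or 3 (0.75 to 0.86), with arrays centred (0.78) or quantile normalised (0.82), and with no filter or no trend (0.84 each).

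Genes of the quiescent, vitamin A-storing state did not move together. Of 18 tested members 6 were called higher and 2 lower (median 0.25), and the higher count was 2 without coculture replicate 3. Hgf, hepatocyte growth factor, was 9.22 and 9.63 in coculture, 6.81, 7.63 and 6.33 after ligation and 7.95, 7.58 and 6.76 after CCl4 (2.25 ± 0.41 higher; adjusted p = 0.0011 in limma). Lrat, which esterifies retinol for storage, was 6.44 and 9.53 against 3.02 to 7.77. Ligation replicate 3 was the highest in vivo value and overlapped coculture replicate 2, and the difference of 3.69 ± 1.16 was not called without coculture replicate 3 (2.15). Reln, the glycoprotein reelin, was lower, at 8.10 and 9.46 against 9.97 to 11.08 (-1.98 ± 0.35). Desmin, Des, was lower by 0.89 ± 0.31, a call lost without either coculture array (-1.12 and -0.67), ligation replicate 1 or 3 (-0.80 and -0.82), CCl4 replicate 2 (-0.76) or culture replicate 2 (-0.89). Averaging all probe sets (-0.52), a replicate block (-0.82) and a fit with no filter or no trend (-0.89 each) also ended it.

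Many antioxidant and glutathione genes fell in coculture, with 12 of 21 called lower (15.3% of all genes) and 1 higher (median -1.03). Gsta2, an alpha-class glutathione transferase, was 2.17 and 1.49 in coculture, 8.22, 7.77 and 7.03 after ligation and 9.35, 8.90 and 9.13 after CCl4. Coculture was at background and the difference was -6.57 ± 0.37 (adjusted p = 5.36e-08 in limma). Quiescent cells plated for 24 h were at 8.29 ± 0.65 (SD, n = 5) and 5-day culture without macrophages at 2.22 ± 0.18 (SD, n = 3). Gsta4 and Gsta3 were lower by 5.55 and 3.79. The quinone reductase Nqo1, sulfiredoxin Srxn1 and the glutathione synthesis subunits Gclm and Gclc were lower by 2.60, 2.51, 1.80 and 1.75. Gstt1 was the member called higher (1.94 ± 0.46), Hmox1 was not called (-0.76 ± 0.49), and catalase and Sod1 were not called. Gsta2 has a near-identical copy, Gsta1, and signal could be shared between the pair.

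The core of the antioxidant response element, TGACNNNGC on either strand with overlaps allowed, was in 6 of 16 list genes with a RefSeq window (4 of 10 called) and in 1103 of 6416 tested genes (17.2%). The upstream bases of 2 called genes that hold it follow, with the match in capitals.
Gsta3, chr1:21240335-21240584, plus strand: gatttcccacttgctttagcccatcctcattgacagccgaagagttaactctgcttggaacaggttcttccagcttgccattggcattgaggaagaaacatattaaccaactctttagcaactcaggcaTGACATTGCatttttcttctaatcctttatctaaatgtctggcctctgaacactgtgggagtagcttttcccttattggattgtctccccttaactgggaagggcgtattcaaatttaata
Gclm, chr3:122245307-122245556, plus strand: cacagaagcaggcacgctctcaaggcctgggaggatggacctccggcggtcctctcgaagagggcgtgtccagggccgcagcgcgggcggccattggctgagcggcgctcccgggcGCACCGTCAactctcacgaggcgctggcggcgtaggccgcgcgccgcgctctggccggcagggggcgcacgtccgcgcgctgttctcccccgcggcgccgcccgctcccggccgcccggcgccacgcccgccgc
Gclm was 6.70 and 6.76 in coculture, 8.44, 8.36 and 8.58 after ligation and 8.57, 8.52 and 8.73 after CCl4, a gap far wider than the spread within any of the 3 groups.

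Most mitotic genes rose, while most replication genes did not pass the test. Of 13 mitosis genes 9 were called higher (15% of all genes) and none lower (median 1.21), and 1 call was left without coculture replicate 3. Bub1, a spindle checkpoint kinase, was 6.03 and 7.83 in coculture, 3.80, 3.33 and 3.80 after ligation and 3.96, 4.04 and 5.01 after CCl4 (2.94 ± 0.48 higher; adjusted p = 0.000466 in limma). Coculture replicate 3 was the higher array for all 13 of these genes. Mki67 was 5.96 and 7.80 against 5.12 to 6.87 and was not called (0.92 ± 0.49). Of 19 replication genes 2 were called higher, Ccne2 and Fen1 (median 0.39), and neither remained without coculture replicate 3 (0.96 and 0.67), while 5 were called higher with a replicate block. Against culture without macrophages all 19 replication and all 13 mitosis genes were called higher in coculture (8.37% of all genes were). Culture minus in vivo called 17 and 9 of them lower (25.9% of all genes were).

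Glycolysis and hypoxia genes were higher in 10 of 19 cases and lower in none (15% and 15.3% of all genes; median 0.57; 12 higher and 0 lower at an unadjusted p under 0.05 in limma). Bnip3, a mitochondrial protein induced by low oxygen, was 9.38 and 9.81 in coculture, 6.47, 7.07 and 6.63 after ligation and 7.15, 6.37 and 7.01 after CCl4 (2.81 ± 0.23 higher; adjusted p = 1.96e-06 in limma). The lactate exporter Slc16a3 was 3.16 ± 0.39 and adrenomedullin, Adm, 2.18 ± 0.53 higher, and the glycolytic enzymes Tpi1, Pgk1 and Ldha were higher by 0.99, 0.79 and 0.64. Slc2a1, the main glucose transporter of these cells, was not called (0.12 ± 0.34). The count was 5 without coculture replicate 3. Genes of mitochondrial respiration gave the tightest limits: for all 24 the 95% interval lay within 2-fold, with 3 called lower by at most 0.45 and 2 called higher by at most 0.62. Without coculture replicate 2 the counts were 1 lower and 0 higher, with Cyc1 (-0.37), Sdhd (0.46) and Cox6c (0.32) among the lost calls, and without replicate 3 the lower count was 1.

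Other stress and lipid genes moved little or unevenly. Of 20 endoplasmic reticulum stress genes Ddit4 was called higher (2.33 ± 0.38) and Hyou1 lower (-0.70 ± 0.15), and 12 lay within 2-fold. The Hyou1 call was lost without coculture replicate 3 (-0.48). Of 15 cholesterol genes Stard4, Sc5d, Lss and Fdps were called higher (median 0.59), with 1 call left without coculture replicate 3 and 1 when all probe sets were averaged. The Fdps call was also lost without any ligation array, CCl4 replicate 2 or 3, quiescent replicate 5 or culture replicate 2 (1.01 to 1.10), with arrays centred (0.99), with a replicate block (0.95), and with no filter or no trend (1.05 each). Of 24 immediate early and heat shock genes 4 were called lower and none higher in limma (median -0.60; 7 and 1 at an unadjusted p under 0.05): Hspa1b, Myc, Klf2 and Jund. That count was 7 without quiescent replicate 4, 2 without ligation replicate 3 and 1 without coculture replicate 3, and 12 when only the 8 arrays of the comparison were fitted. The Hspa1b call was lost without coculture replicate 2 (-2.56) or 3 (-1.68), without ligation replicate 3 (-1.81) and with a replicate block (-2.14). Myc lost its call without coculture replicate 3 (-0.96), any ligation array (-1.38 to -1.49) or CCl4 replicate 1 (-1.39) or 2 (-1.43). Its call was also lost with no filter (-1.45). Jund lost its call without coculture replicate 2 (-0.45) or 3 (-0.65). Of 14 YAP and TAZ targets Crim1, Tead1 and Amotl1 were called lower, with 7 when only those 8 arrays were fitted, while Ccn2 was not called (-0.34 ± 0.31). Amotl1 lost its call without coculture replicate 3 (-0.27), and Tead1 when all probe sets were averaged (-0.36).

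**Figure D4:**
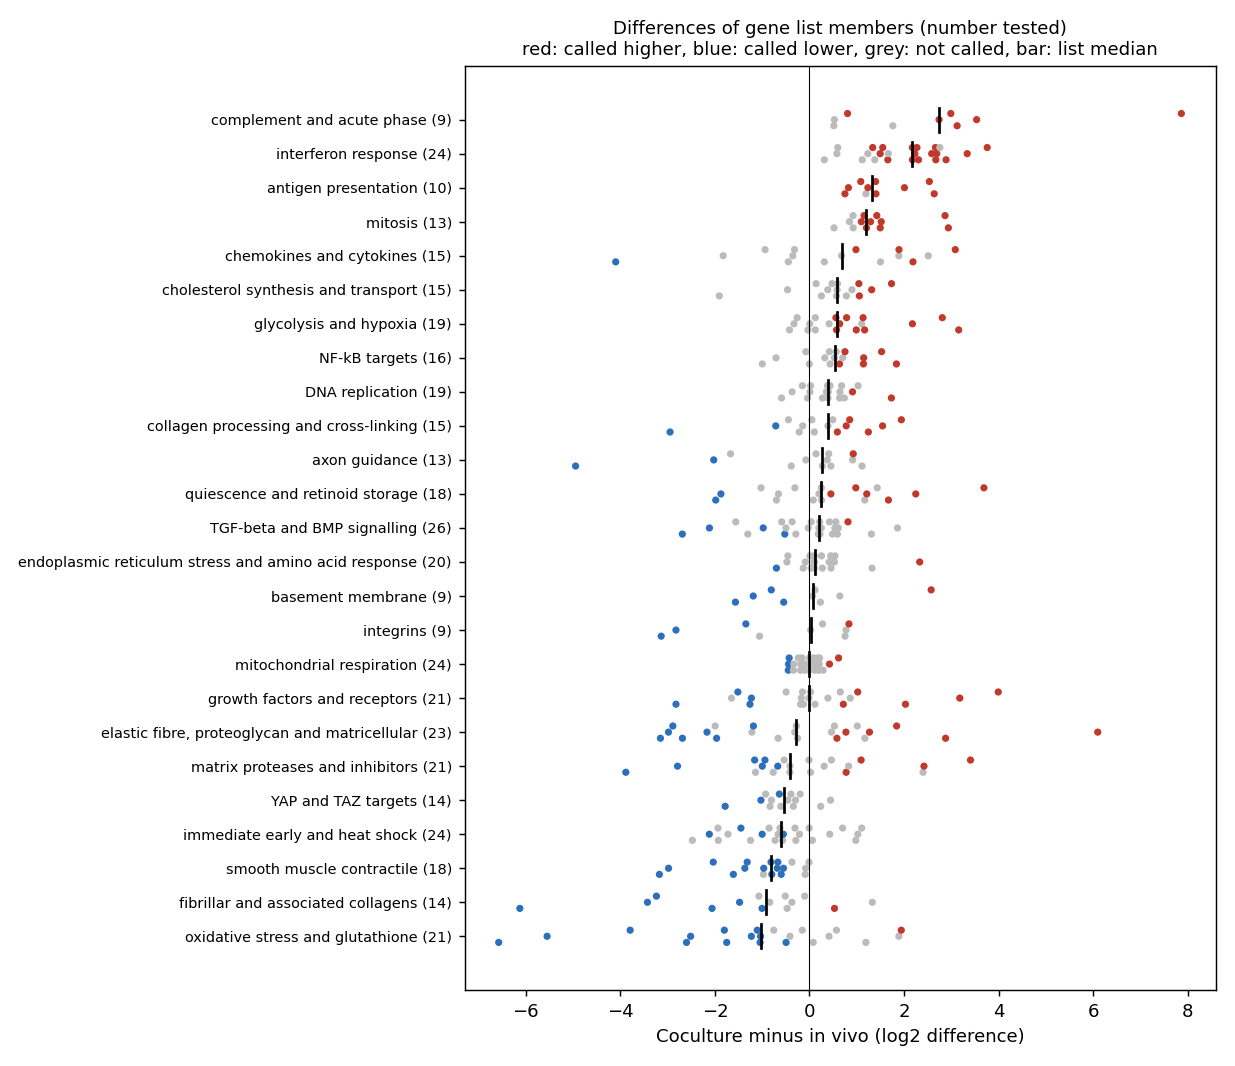
Coculture minus in vivo difference (horizontal axis, log2) of every tested member of 25 gene lists, ordered by list median (black bar), with called higher genes in red, called lower in blue and the rest in grey. Complement, interferon, antigen presentation and mitosis lists have medians above 1, and the glutathione, collagen and contractile lists have medians of -1.03, -0.92 and -0.80.

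The largest decreases included genes of epithelial cells. Alb, albumin, was 2.17 and 1.75 in coculture, 9.0, 7.34 and 8.40 after ligation and 7.94, 9.26 and 10.79 after CCl4 (-6.83 ± 0.69). Krt18, a keratin of simple epithelia, was 2.19 and 2.06 against 6.96 to 9.96, and its partner Krt8 2.24 and 2.05 against 5.90 to 9.56. CCl4 replicate 3 was the highest of the in vivo arrays for Alb, Krt8, Krt18 and the protease inhibitor Slpi. Without it the differences were -6.46, -4.65, -5.43 and -4.85, and all 4 were still called in limma. Quiescent cells prepared the same way were at background for Alb (2.75 ± 0.94, SD, n = 5) and Krt18 (2.06 ± 0.32).

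Other large decreases were in matrix and membrane proteins. Dpt, the matrix protein dermatopontin, was 1.70 and 1.97 in coculture, 6.75, 7.76 and 6.73 after ligation and 8.45, 7.77 and 7.69 after CCl4 (-5.69 ± 0.40; adjusted p = 3.67e-07 in limma). The small heat shock protein Hspb7 differed by -4.81 ± 0.28, the GDNF-family receptor Gfra2 by -4.54 ± 0.67 and caveolin Cav1 by -4.13 ± 0.42. Sparcl1, a matricellular protein, was 1.78 and 8.47 on the 2 coculture arrays and 9.12 to 10.22 in vivo, and its difference of -4.56 became -1.21 and was not called without coculture replicate 2. Baiap2l1, which shapes actin at membranes, was 2.48 and 1.78 in coculture, 4.55, 5.16 and 4.15 after ligation and 7.83, 8.11 and 9.01 after CCl4, and was among the 13 genes called between the injuries.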

How the data were processed

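Total RNA of mouse stellate cells had been hybridised to 16 one-colour oligonucleotide arrays, and the deposited values are log2 intensities that the authors made with GCRMA, per the submitters' processing notes (its version is not given in the sources used here). Of 45101 probe sets 34945 carried 1 gene symbol in the platform annotation, 932 several and 9160 none, and 64 were controls. Each gene was represented by its brightest probe set, averaged across all 16 arrays, and genes reaching log2 5 on at least 2 arrays were tested (7823 of 18193). GCRMA draws low intensities toward a common background, so differences from values near log2 2 rest on that floor.

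Group means over the 16 arrays were fitted in R 4.3.3 by limma 3.58.1 (eBayes with trend), with Benjamini-Hochberg adjustment over the tested genes. In simulated data of the same design and 7823 genes, the coculture minus in vivo test recovered 59.1%, 89.6% and 98.5% of changes of 1, 2 and 3 on the log2 scale, and 6.25% of its calls were false. There 200 genes were changed, in coculture only, and normal noise had the same spread per gene in all groups. In the data 30.3% of genes were called, and the coculture arrays stood further apart than in vivo replicates. These rates therefore need not hold for the data. Precision is limited by the number of arrays, 2 of coculture. Samples were grouped by their titles.

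The named genes were the 15 largest called increases and the 15 largest decreases with no overlap between the sides (unnamed clones skipped), up to 4 members of each gene list with the smallest adjusted p, and fixed activation, quiescence and stellate marker genes, and other list members are named beside their list's count. S100a9, Krt7, Krt19, Epcam, Sox9 and the other cell markers are named from the marker lists or as the partner of a named gene. The members and lists were chosen with earlier results of these data known. List counts are read against the share of all tested genes called in the same comparison and direction, with no test of the list. Alternatives covered the arrays fitted, scaling, filter, probe sets, array weights, trend, a replicate block and each array left out.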

Additional observations from a re-analysis of the deposited data

Results flagged for a closer look

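In 10 of 140 named genes, 1 of the 5 quiescent arrays lay far from the others, where chance alone would set apart about 1 group in 20. The quiescent arrays enter the comparison only through the shared estimate of spread. Quiescent replicate 4 stood apart for Mmp13 (8.16, others 3.61 to 4.38), Efemp1 (8.03, others 9.17 to 9.51), Reln (11.52, others 12.07 to 12.26), Cd40 (4.52, others 3.44 to 3.71), Fen1 (6.0, others 7.19 to 7.40) and Pgk1 (10.85, others 10.34 to 10.49). Replicate 3 stood apart for Stard4 (6.85, others 5.28 to 5.59) and Hspa1b (9.34, others 11.30 to 11.95), replicate 1 for Tslp (5.93, others 7.39 to 7.57) and replicate 2 for Cox6c (10.60, others 10.67 to 10.69).

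For 2 named genes the coculture difference was not the same against the 2 injuries, by the direct limma test of ligation minus CCl4. Baiap2l1 was lower than in both injuries, by -2.49 against ligation and -6.18 against CCl4, and the injuries differed by -3.69 (adjusted p = 0.00025 in limma). Sema3a, a repulsive guidance cue, differed from coculture by 2.14 against ligation and -0.31 against CCl4, and the injuries differed by -2.45 (adjusted p = 0.00964 in limma).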

How the results depend on the processing

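Leaving out 1 array at a time moved the count of called genes between 1057 (without coculture replicate 3) and 2613 (without quiescent replicate 4), against 2374. The corresponding ranges were 1196 to 2550 for coculture minus ligation (2609 with 3 arrays dropped together), 699 to 1940 for coculture minus CCl4, 446 (without coculture replicate 2) to 1400 for coculture minus culture, 4 to 20 for ligation minus CCl4, and 3158 to 4521 for genes within 2-fold. With 1 coculture array its spread is assumed to be that of the other groups. The ligation minus CCl4 count of 13 was also 7 with only the 8 arrays of the comparison, 43 with no filter, 4 with a filter at log2 7, 20 with the mean of all probe sets, 173 with array weights and 8 in a fit that dropped 3 arrays together, CCl4 replicate 3, culture replicate 3 and quiescent replicate 4. With no filter 13338 genes lay within 2-fold, because more genes were tested. All other alternatives kept each of these 6 counts over all genes within 1.5 times. Among gene lists, beside the moves given in the report, genes called higher went from 1 to 3 for endoplasmic reticulum stress with all probe sets averaged and without ligation replicate 3 or culture replicate 1, from 1 to 3 and 4 for TGF-beta and BMP with all probe sets averaged and with the 3 arrays dropped, from 1 to 4 for glutathione without coculture replicate 2, and from 0 to 3 for immediate early genes with 8 arrays. Endoplasmic reticulum stress genes called lower went from 1 to 3 without coculture replicate 2. Sign changes of single genes are given only where the reported fit or the alternative called the gene. Itga1 (-0.17) and Edem1 (0.45) changed sign with the mean of all probe sets. Col6a2 (1.20) did so without coculture replicate 2 (-1.40 without replicate 3), and the cause was not tested. Of the 140 named genes 25 lost their call without coculture replicate 2 and 30 without replicate 3. The share of higher among called genes was 49.6%, and 43.2% after centring each array. Of the 140 genes 64 had other tested probe sets, of which 6 genes had one of opposite sign and 0 had one called in the opposite direction by limma. Deviations of same-numbered arrays correlated at -0.26 to 0.54, over 0.1 in 6 of 26 pairs. Culture and coculture deviated together (0.31 for number 2 and 0.54 for number 3, where differently numbered pairs reached 0.45), and coculture with either injury gave -0.02 to 0.16. No label ties the numbers and most pairs were under 0.1, so they were not taken to pair the samples. With the replicate number as a block 2246 genes were called (1356 for coculture minus culture), and of the named genes Des (-0.82), Fdps (0.95), Hspa1b (-2.14) and Vcam1 (0.67) were not called. Dim genes near background have the least certain differences.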
